A study of Sus scrofa with 18 samples.

Results

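The genes described here were ACAT2, HMGCS1, MVK, SQLE, MSMO1 and SC5D of cholesterol synthesis, and with them INSIG1, a sterol-regulated brake on the same pathway. They were taken by gene symbol from the array annotation. The choice of genes was made with earlier results of these data known. All 7 were found, each with 1 probe set, among 12307 gene symbols and 25388 probe sets in all. The values came from the liver of 18 growing male crossbred pigs, one Porcine Gene 1.0 ST array per pig, and are log2 expression values.

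The pigs were crosses of Piétrain with German Landrace × German Edelschwein sows, 5 weeks old at the start, and were killed in the fed state on day 29. In the diet of group CON soybean extraction meal was the main protein source, beside wheat, barley and broad bean, without insects. For group IM5, meal of Tenebrio molitor larvae at 5% of the diet took the place of 50% of that soybean meal, and for group IM10 a share of 10% replaced 100% of it. Each group held 10 pigs, of which 6 were drawn at random for the arrays. The insect meal diets also differed from the control diet in added cellulose, free amino acids and vegetable oils, so these changes and the insect meal cannot be told apart. The animals were housed several to a pen, and which of them shared one is not given in the sources used here. The tests therefore count every pig as separate.

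Cholesterol is built in the cytosol and endoplasmic reticulum from acetyl-CoA, by way of mevalonate, squalene and lanosterol. The transcription factor SREBP2 drives the genes of this pathway when membranes are poor in sterol, and it is held in the endoplasmic reticulum by SCAP and the INSIG proteins when sterol is plentiful. INSIG1 is itself a target of SREBP2 and, in liver, of other regulators of lipid synthesis, and the liver is a main site of both cholesterol synthesis and its disposal as bile acids.

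The arrays resembled each other closely, with medians between 5.05 and 5.15 and correlations between arrays of 0.986 to 0.9924. The mean of 4 measured hepatocyte markers lay between 12.04 and 12.16 in all 18 pigs. In tissue RNA of this kind, fewer cells of a type and less RNA per cell cannot be told apart. Levels of different probe sets are not comparable, so the level of each gene was compared only with its own across pigs. Where spreads of different genes are set side by side, this describes the values and was not tested.

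Each of the 7 genes had a higher mean in IM10 than in CON, by 0.06 to 0.46 on the log2 scale. Against group IM5, too, all 7 means were higher in group IM10. ACAT2, HMGCS1, SQLE and MSMO1 varied together between pigs (r of 0.78 to 0.91), so the 7 directions are not separate results. Between groups IM5 and CON the means went both ways, with INSIG1 and SC5D higher and the other 5 genes lower in group IM5. Most of these differences did not pass limma's test, and none passed adjustment over all probe sets. The criteria used here were a fold change over 1.2 with an unadjusted limma p under 0.05. INSIG1, SQLE, HMGCS1 and ACAT2 each met them in 1 of the comparisons. The study applied the same limits between IM10 and CON, with an equal-variance test without moderation. The study had picked INSIG1 on these same arrays, so its difference is not independent evidence. By qPCR in all pigs of each group, the study reported no difference between the diets for SQLE and MVK. Its SQLE mean was lower in IM10 than in CON, unlike on the arrays. It also reported no difference in liver or plasma cholesterol.

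**Figure D1:**
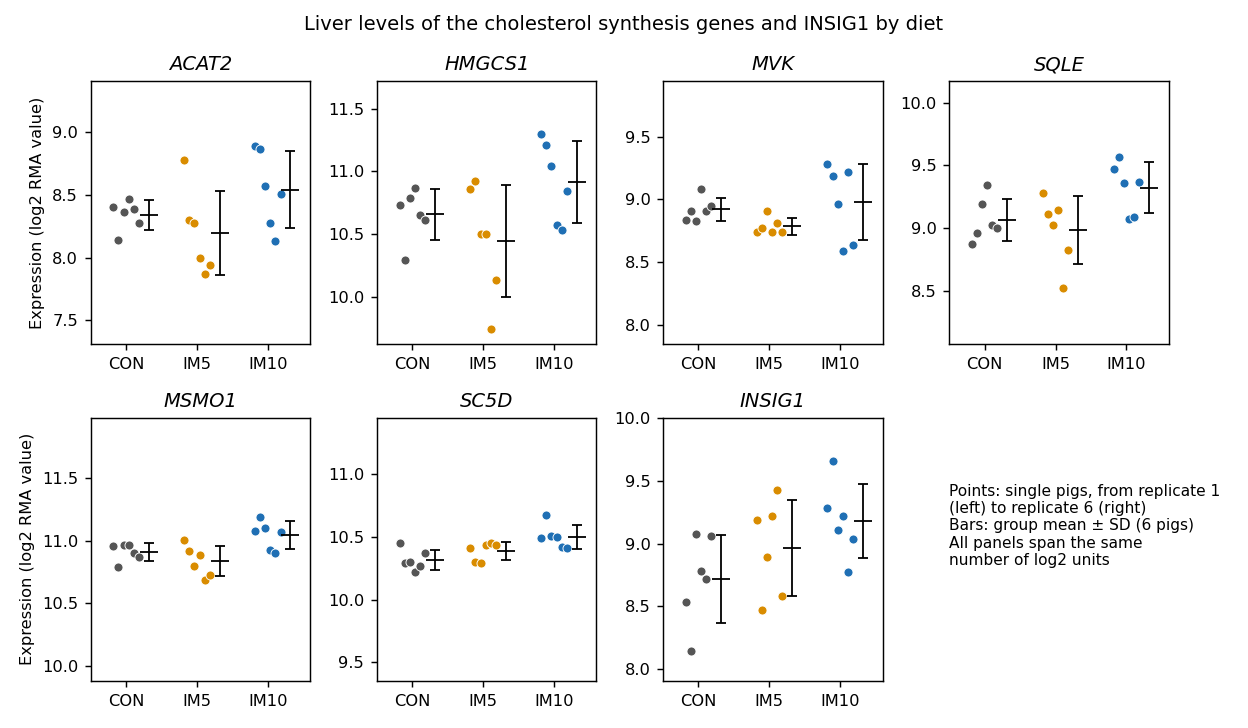
Log2 expression of each of the 7 genes in the livers of groups CON, IM5 and IM10, with points for single pigs and bars for the group mean ± SD (6 pigs per group). Every panel spans the same number of log2 units, so the spread of HMGCS1 in group IM5 (SD 0.45) can be set beside that of MVK (SD 0.07).

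ACAT2 is the cytosolic thiolase that joins acetyl-CoA units into acetoacetyl-CoA. Its lowest, median and highest values were 8.14, 8.38 and 8.47 in CON, 7.87, 8.14 and 8.78 in IM5 and 8.13, 8.54 and 8.89 in IM10. The lowest 3 pigs of group IM5 lay below every control, while 1 pig of the same group lay above every control. Group means were 8.34 ± 0.12 (SD, n = 6), 8.19 ± 0.34 (SD, n = 6) and 8.54 ± 0.31 (SD, n = 6) for CON, IM5 and IM10.

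HMGCS1 makes HMG-CoA from acetoacetyl-CoA, the step before HMG-CoA reductase. Its lowest, median and highest values were 10.29, 10.69 and 10.87 in CON, 9.74, 10.50 and 10.92 in IM5 and 10.53, 10.94 and 11.30 in IM10. The 2 lowest of all pigs, at 9.74 and 10.13, were replicates 5 and 6 of group IM5, and the 3 highest were replicates 1, 2 and 3 of group IM10. Means were 10.66 ± 0.20, 10.44 ± 0.45 and 10.91 ± 0.32 (SD, n = 6 each), and all groups overlapped.

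MVK phosphorylates mevalonate. It ranged from 8.83 to 9.08 with a median of 8.91 in CON, from 8.74 to 8.91 with a median of 8.76 in IM5 and from 8.59 to 9.28 with a median of 9.07 in IM10. Group IM10 held both the lowest and the highest pigs for this gene, whereas 5 of 6 pigs of group IM5 lay below every control. Means were 8.92 ± 0.09, 8.79 ± 0.07 and 8.98 ± 0.30 (SD, n = 6 each).

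SQLE, squalene epoxidase, commits squalene to sterols and is a known control point of the pathway. Its lowest, median and highest values were 8.87, 9.01 and 9.34 in CON, 8.52, 9.06 and 9.28 in IM5 and 9.07, 9.37 and 9.57 in IM10. Group IM10 overlapped both other groups, although 4 of its pigs lay above every control. Means were 9.06 ± 0.17, 8.98 ± 0.27 and 9.32 ± 0.20 (SD, n = 6 each).

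MSMO1 removes the methyl groups at carbon C4 of the sterol ring. It ranged from 10.79 to 10.97 around a median of 10.93 in CON, from 10.69 to 11.01 around 10.85 in IM5 and from 10.90 to 11.19 around 11.08 in IM10. The pigs varied little, and 4 of 6 pigs of group IM10 lay above every control. Means were 10.91 ± 0.07, 10.84 ± 0.12 and 11.04 ± 0.11 (SD, n = 6 each).

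SC5D introduces a double bond late in the pathway. It ranged from 10.22 to 10.45 around a median of 10.30 in CON, from 10.29 to 10.45 around 10.43 in IM5 and from 10.41 to 10.68 around 10.50 in IM10. Here group IM5 lay between the other groups. Means were 10.32 ± 0.08, 10.39 ± 0.07 and 10.50 ± 0.10 (SD, n = 6 each).

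INSIG1 was the regulator among the 7, with a SD over the 18 pigs (0.378) close to that of HMGCS1 (0.376). Its lowest, median and highest values were 8.14, 8.75 and 9.08 in CON, 8.47, 9.04 and 9.43 in IM5 and 8.77, 9.16 and 9.66 in IM10. Of the 6 pigs of group IM10, 4 lay above every control. Means were 8.72 ± 0.35, 8.96 ± 0.38 and 9.18 ± 0.29 (SD, n = 6 each).

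The comparison of group IM10 with group CON asked what complete replacement of the soybean meal did to these transcripts. INSIG1 was higher by 0.46 (1.38-fold, 95% interval 0.12 to 0.81) with a limma p of 0.0118, and an exact permutation test of the 924 arrangements of the pigs gave p = 0.0281. It was the 1 of 7 genes that met the criteria, which 2.07% of all probe sets met (1.27% with the higher mean in group IM10). Its Benjamini-Hochberg adjusted p over all probe sets was 0.72 (limma). SQLE was higher by 0.26 (0.04 to 0.47, limma p = 0.0218, exact permutation p = 0.0433), and its fold change lay just under the threshold. SC5D was higher by 0.19 (0.05 to 0.32), a smaller difference with less spread, for which limma gave p = 0.0114 and the exact permutation test p = 0.00649.

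For MSMO1 the difference of 0.14 had a limma p of 0.0558 and an exact permutation p of 0.039. HMGCS1 differed by 0.26 (−0.03 to 0.55, exact permutation p = 0.132), ACAT2 by 0.20 (−0.05 to 0.46, p = 0.18) and MVK by 0.06 (−0.19 to 0.31, p = 0.662). The intervals of these 3 genes leave room for a difference in either direction. The median difference of the 7 genes was 0.20, beside 0.00 over all probe sets, of which 50.8% had the higher mean in IM10. An unadjusted limma p under 0.05 was reached by 3 of the 7 genes, INSIG1, SQLE and SC5D, and by 6.07% of all probe sets. Without replicate 5 of group IM10, SQLE, HMGCS1 and ACAT2 met the criteria as well, so that the count of genes went from 1 to 4. It was 3 without replicate 4 of that group, and 2 without control replicate 3 or without control replicate 4.

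The comparison of group IM5 with group CON asked the same of partial replacement. None of the 7 genes met the criteria by limma or by the methods' t-test (0 of 7), which 1.92% of all probe sets met in the limma fit, and 0 had an unadjusted limma p under 0.05 (5.72% of all probe sets). The mean was higher in IM5 for 2 of 7 genes and for 51.3% of all probe sets. INSIG1 was higher by 0.25 (−0.14 to 0.63, exact permutation p = 0.281) and SC5D by 0.07 (p = 0.149). HMGCS1 was at −0.21 (−0.58 to 0.15, exact permutation p = 0.318), ACAT2 at −0.14 (p = 0.359), SQLE at −0.08 (p = 0.582) and MSMO1 at −0.07 (p = 0.258). Single pigs moved these values: without IM5 replicate 5, HMGCS1 was at −0.07 and ACAT2 at −0.08, and without IM5 replicate 1 ACAT2 was at −0.26 with a limma p of 0.015, under the fold threshold. MVK had the smallest p of the 7, with a difference of −0.14 (−0.27 to 0.00), a limma p of 0.0529 and an exact permutation p of 0.0152.

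The direct comparison of the insect meal diets gave the most calls. HMGCS1 exceeded its IM5 mean in group IM10 by 0.47 (1.39-fold, 0.07 to 0.88), with a limma p of 0.0257 and an exact permutation p of 0.0563. ACAT2 was higher by 0.35 (1.27-fold, 0.01 to 0.69, limma p = 0.0471, exact permutation p = 0.106) and SQLE by 0.34 (1.27-fold, 0.08 to 0.60, limma p = 0.0152, exact permutation p = 0.0303). These 3 of 7 genes met the criteria, beside 1.59% of all probe sets (0.827% with the higher mean in group IM10). The mean was higher in IM10 for 7 of 7 genes and for 49.3% of all probe sets. The 3 called genes varied together between pigs, so their calls and directions are not separate results. MSMO1 had a limma p of 0.0149 and an exact permutation p of 0.013, at a difference of 0.21 that lay under the fold threshold. INSIG1 (0.22, exact permutation p = 0.299) and MVK (0.20, p = 0.158) passed neither test. SC5D differed by 0.11 with a limma p of 0.102 and an exact permutation p of 0.0346.

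These calls rested on few pigs. Without replicate 5 of group IM5 the count fell from 3 to 0, and it was 1 without replicate 6 of group IM5 or without replicate 1 or replicate 2 of group IM10. The adjusted p over all probe sets was 0.881 for each of the 3 genes (limma). Where the limma and exact tests of HMGCS1 and ACAT2 stood on different sides of 0.05, the methods' t-test also gave p values above it, of 0.0621 and 0.092, leaving SQLE as the 1 gene called.

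**Figure D2:**
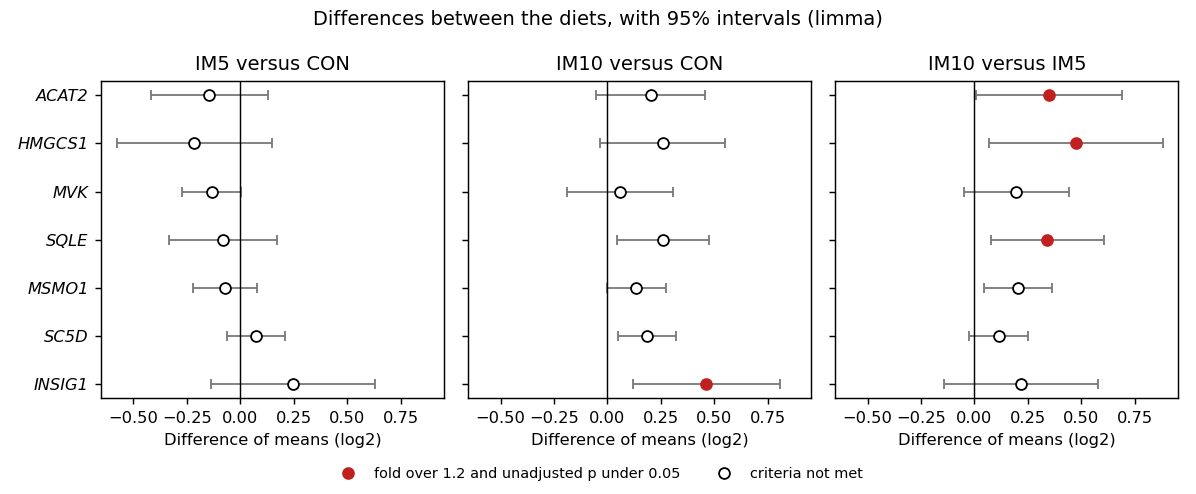
Difference of group means on the log2 scale for each gene in the 3 pairs of groups, with 95% limma intervals from 6 pigs per group. Filled points met the criteria: INSIG1 for IM10 versus CON, and SQLE, HMGCS1 and ACAT2 for IM10 versus IM5.

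No gene's groups were free of overlap in any pair, which held for 0.256% of all probe sets between IM10 and CON, 0.225% between IM5 and CON and 0.213% between IM10 and IM5. The groups of each comparison are shared with another one, so the 3 comparisons are not independent of each other. In the order of the group means, SC5D and INSIG1 went up from CON over IM5 to IM10. ACAT2, HMGCS1, MVK, SQLE and MSMO1 were lowest in IM5 and highest in IM10, an order found for 16.5% of all probe sets. For none of these 5 genes did the IM5 and CON groups, next to each other in that order, pass limma's test, whereas CON and IM10 differed for SQLE. Of INSIG1 and SC5D, no pair of neighbouring groups passed it.

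A straight line through the 3 amounts of insect meal gave a positive slope for all 7 genes. With evenly spaced amounts and groups of equal size, each slope is fixed by the difference between the IM10 and CON means. The directions therefore repeat those of IM10 versus CON, and the IM5 pigs enter only the spread around the line. An unadjusted limma p under 0.05 was reached by 2 of 7 genes and by 5.32% of all probe sets (3.01% with a positive slope). INSIG1 rose by 0.05 log2 units per percent of insect meal (95% interval 0.01 to 0.08, n = 18, limma p = 0.0144, adjusted p = 0.902). SC5D rose by 0.02 (0.01 to 0.03, n = 18, limma p = 0.00569, adjusted p = 0.8). SQLE had a slope of 0.03 (n = 18, limma p = 0.0541), and the other 4 genes had limma p values from 0.0856 to 0.587.

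Of the 21 cholesterol synthesis genes listed, 12 were measured (CYP51A1 under the older symbol CYP51), 6 of them beyond those above. These 6 were PMVK and FDPS, which carry mevalonate on to farnesyl diphosphate, and CYP51A1, TM7SF2, NSDHL and HSD17B7, which work on the sterol ring. Between IM10 and CON, 11 of the 12 means were higher with a median difference of 0.14, but 0 met the criteria. Of all probe sets, 50.8% had the higher mean in IM10 and 2.07% met the criteria. The differences of the other 6 were 0.19 for HSD17B7, 0.15 for FDPS, 0.11 for NSDHL, 0.10 for CYP51A1, 0.04 for PMVK and −0.01 for TM7SF2. Limma p values for these 6 genes ran upward from 0.114.

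Between IM5 and CON, 4 of the 12 means were higher and 8 lower, and again 0 met the criteria (1.92% of all probe sets). CYP51A1 and NSDHL were at −0.12 each, TM7SF2 at 0.11, FDPS at 0.06, PMVK at 0.04 and HSD17B7 at −0.01. Between IM10 and IM5, 10 of the 12 means were higher and 6 had an unadjusted limma p under 0.05, a share met by 5.40% of all probe sets. Beside SQLE, HMGCS1, ACAT2 and MSMO1 these were CYP51A1 (10.16 ± 0.13 against 9.94 ± 0.12, a difference of 0.22, exact permutation p = 0.0173) and NSDHL (9.48 ± 0.15 against 9.25 ± 0.19, a difference of 0.23, p = 0.0476). Both stayed under the fold threshold. After subtracting the diet means, CYP51A1 and NSDHL had r of 0.82 and 0.81 with HMGCS1. The counts over these 12 genes are therefore not made of separate results. HSD17B7 differed by 0.21, FDPS by 0.09, PMVK by −0.01 and TM7SF2 by −0.12, with limma p values of 0.137 and above.

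Of 11 listed regulators of SREBP2 processing and sterol-dependent degradation, 4 were measured, and INSIG1 was the 1 that met the criteria in any pair. SCAP, the escort of SREBP2, differed from CON by 0.01 in IM10 and 0.03 in IM5, and its other probe set by 0.01 and 0.03. RNF139, a ubiquitin ligase of the endoplasmic reticulum, was at −0.13 in IM10 (limma p of 0.0831, exact permutation p = 0.0238) and −0.14 in IM5 (limma p of 0.0865, exact p = 0.0649). FAF2, which helps extract ubiquitinated proteins from that membrane, was at −0.06 in IM10 and 0.00 in IM5.

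Of 8 listed SREBP2 targets of sterol uptake and transport, 4 were measured, and LPIN1 was the 1 called. Between IM10 and CON 2.07% of all probe sets were called, and between IM5 and CON 1.92%. LPIN1 encodes a phosphatidate phosphatase of glycerolipid synthesis that also acts as a nuclear coactivator of fatty acid oxidation genes. It had means of 6.21 ± 0.21, 6.55 ± 0.27 and 6.71 ± 0.28 (SD, n = 6 each) in CON, IM5 and IM10. It was higher in IM10 than in CON by 0.50 (0.23 to 0.77, exact permutation p = 0.00866, limma adjusted p = 0.604) and in IM5 by 0.34 (0.08 to 0.61, exact p = 0.0173, limma adjusted p = 0.863). NPC1, which moves cholesterol out of lysosomes, differed from CON by 0.25 in IM10 (exact permutation p = 0.119) and 0.22 in IM5 (p = 0.149). STARD4, a cytosolic sterol carrier, was at 0.13 and −0.12 against CON, and 0.25 higher in IM10 than in IM5 (exact permutation p = 0.0238), under the fold threshold. NPC1L1, a sterol importer at the cell surface, was at −0.11 in IM10 and 0.19 in IM5 against CON, and at −0.30 in IM10 against IM5 (−0.67 to 0.07, exact permutation p = 0.18).

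On the routes away from cholesterol, of 8 measured genes of sterol efflux, storage and LXR, 0 met the criteria in any of the 3 pairs by limma, and 1 had an unadjusted p under 0.05, between IM5 and CON. A further probe set of ABCG5, a sterol exporter, did meet them, at −0.27 in IM10 against IM5 (limma p of 0.0444), while the probe set used for that gene was at −0.11 (limma p of 0.388). The further probe sets of NR1H3, SCARB1 and FADS1 met them in no pair. CYP7A1, the rate-limiting enzyme of bile acid synthesis and the 1 of its list of 4 that was measured, had means of 9.46 ± 0.34, 9.47 ± 0.39 and 9.83 ± 0.17 (SD, n = 6 each) in CON, IM5 and IM10. It was 0.37 higher in IM10 than in CON (0.08 to 0.66, exact permutation p = 0.0368, limma adjusted p = 0.761) and 0.36 higher than in IM5 (exact p = 0.0346, limma adjusted p = 0.881). The difference of IM5 from CON was 0.01 (−0.38 to 0.39). By qPCR in all pigs of each group, the study reported no difference between the diets for CYP7A1. Of 4 measured genes of other isoprenoid branches, 0 met the criteria or had an unadjusted limma p under 0.05 in any pair.

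Among 7 measured genes of fatty acid synthesis, all 7 means were higher in IM10 than in CON, with a median of 0.15, and 2 met the criteria. Of all probe sets, 50.8% had the higher mean in IM10 and 2.07% met the criteria. ME1, malic enzyme, was higher by 0.32 (limma p of 0.0298, exact permutation p = 0.0519) and DGAT2, which makes triacylglycerol, by 0.27 (limma p of 0.00401, exact p = 0.0108). In IM5 all 7 means were again above CON, ME1 by 0.35 (limma p of 0.0309, exact permutation p = 0.0779) with the criteria met, and DGAT2 by 0.12 (exact p = 0.229). For all probe sets these shares were 51.3% above CON and 1.92% with the criteria met. The signal of ME1 was low, with group means of 4.74, 5.09 and 5.06 in CON, IM5 and IM10 beside a median of 5.08 over all probe set means, and the filter on dim probe sets left it out. No gene of that list met them between IM10 and IM5, 0 by limma with 0 at an unadjusted p under 0.05.

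How the 7 genes varied from pig to pig was then examined after the mean of each diet had been subtracted. ACAT2, HMGCS1, SQLE and MSMO1 moved together, and MVK, SC5D and INSIG1 stood apart from them, a grouping read from these values. All 6 pairs among the first 4 genes had correlations between 0.78 and 0.91, and these were the 6 of 21 pairs with an adjusted p under 0.05. MSMO1 and HMGCS1 were closest, with Pearson's r of 0.91 and Spearman's rho of 0.93 over 18 pigs (permutation p = 1e-05 for both, the smallest that 100000 draws can give, adjusted p = 0.00021). SQLE and HMGCS1 followed with r = 0.88 and rho = 0.83 (permutation p = 6e-05 and 0.00017, adjusted p = 0.00042 and 0.000892).

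HMGCS1 and ACAT2 had r = 0.86 and rho = 0.91 (permutation p = 0.0002 and 2e-05, adjusted p = 0.00084 and 0.00021). SQLE and MSMO1 had r = 0.86 and rho = 0.85 (permutation p = 3e-05 and 0.0001, adjusted p = 0.000315 and 0.0007), and MSMO1 and ACAT2 had r = 0.86 and rho = 0.81 (permutation p = 0.00017 and 0.0006, adjusted p = 0.00084 and 0.00248). The loosest of the 6 was SQLE with ACAT2, at r = 0.78 and rho = 0.79 (permutation p = 0.00116 and 0.00071, adjusted p = 0.00406 and 0.00248). All 6 relations held without the 2 pigs farthest from the median, with r from 0.72 to 0.90.

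The same 6 correlations were positive within each diet of 6 pigs. They ran from 0.77 to 0.94 in group IM5 and from 0.88 to 0.98 in group IM10. In group CON, MSMO1, HMGCS1 and ACAT2 had r from 0.91 to 0.97 with each other, whereas SQLE had r from 0.49 to 0.59 with them. Among 12306 other genes, HMGCS1 and MSMO1 were each other's closest in correlation over the 18 pigs. HMGCS1 was also the closest gene to SQLE, and ACAT2 ranked 3 for both HMGCS1 and MSMO1.

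**Figure D3:**
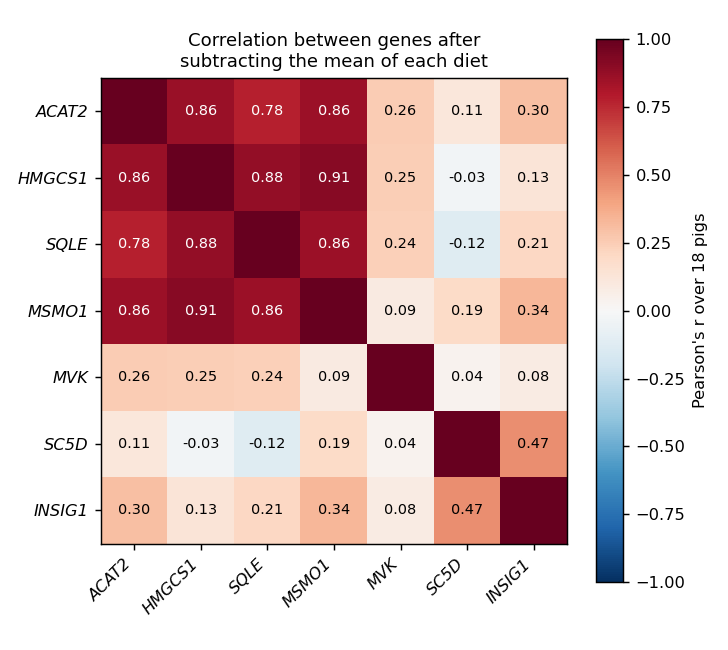
Pearson's r between the 7 genes over 18 pigs, after subtracting the mean of each diet, with the colour scale from −1 to 1. ACAT2, HMGCS1, SQLE and MSMO1 form a block with r of 0.78 to 0.91, and every pair outside it lies between −0.12 and 0.47.

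Single pigs show the pattern in the values as deposited. Replicate 5 of group IM5 was the lowest of all 18 pigs for each of SQLE, MSMO1, HMGCS1 and ACAT2, at 8.52, 10.69, 9.74 and 7.87. Replicate 6 of the same group ranked 17 for all 4 genes. Replicates 1 and 2 of group IM10 held ranks 1 to 3 for all 4, with HMGCS1 at 11.30 and 11.21. For MSMO1 the difference between the highest and the lowest of all pigs was far smaller than for HMGCS1, from 10.69 to 11.19 against 9.74 to 11.30, although the pigs stood in nearly the same order.

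**Figure D4:**
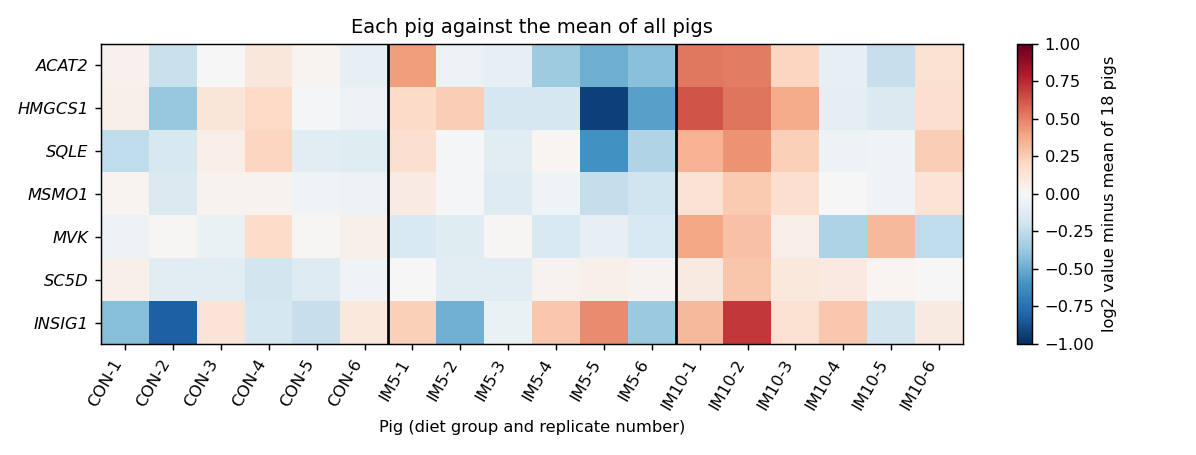
Log2 value of each gene in each pig minus the mean of the 18 pigs, by diet group and replicate number. The low values of ACAT2, HMGCS1, SQLE and MSMO1 in IM5 replicate 5 stand beside a high INSIG1 value of 9.43 in the same pig.

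INSIG1 departed from those 4 genes mostly in group IM5. Its r with them over 18 pigs was 0.13 to 0.34, with permutation p values of 0.207 and above. Within group CON the 4 values were 0.46 to 0.68, within group IM10 0.68 to 0.78, and within group IM5 −0.40 to −0.05. Replicate 5 of group IM5, lowest for the 4 genes, ranked 2 for INSIG1 at 9.43. Without that pig, r between INSIG1 and the 4 genes was 0.47 to 0.59. Whether the correlations differ between diets was not tested.

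SC5D had r from −0.12 to 0.19 with the 4 genes. Its closest member was INSIG1, with r = 0.47 and rho = 0.49 (permutation p = 0.0623 and 0.0595, adjusted p = 0.187 and 0.179) and with r of 0.91 in group IM10, 0.55 in IM5 and −0.02 in CON. Without the 2 farthest pigs that r was 0.30. MVK had r of 0.24 to 0.26 with SQLE, HMGCS1 and ACAT2, 0.09 with MSMO1, 0.08 with INSIG1 and 0.04 with SC5D. In group IM10 the highest MVK values, 9.28, 9.22 and 9.19, were those of replicates 1, 5 and 2, and the lowest 2, 8.59 and 8.64, those of replicates 4 and 6.

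**Figure D5:**
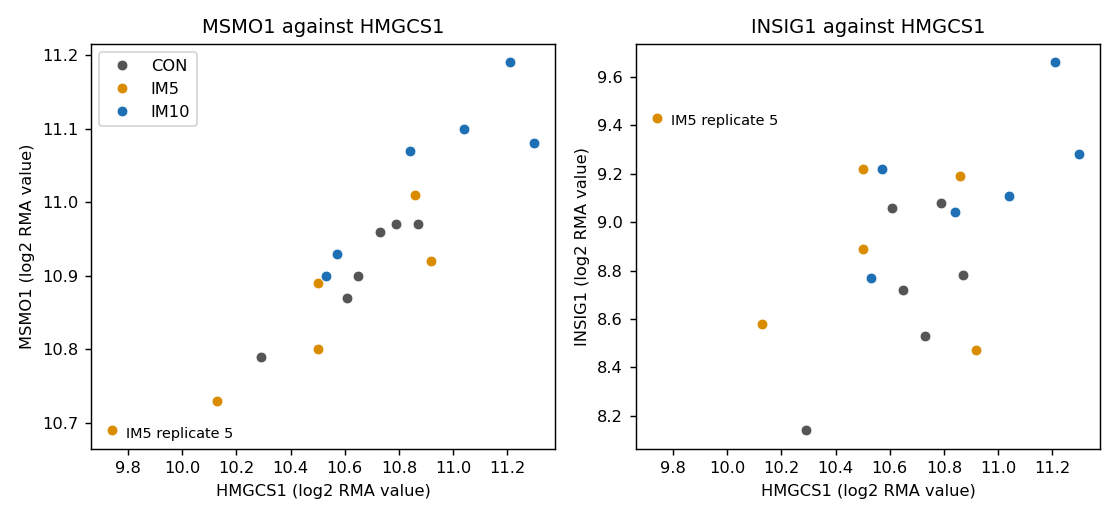
Log2 values of MSMO1 (left) and INSIG1 (right) against HMGCS1, 1 point per pig, coloured by diet. MSMO1 follows HMGCS1 through all 3 diets (r = 0.91 after subtracting diet means), and INSIG1 does not (r = 0.13), with IM5 replicate 5 at the low end of HMGCS1 and near the top of INSIG1.

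The mean standardized deviation of the 7 genes was then set beside every other gene over the same 18 pigs, as a description. Of 12300 genes the median correlation was 0.01, and 0.187% of them (23 genes) reached r of 0.7 or more. The 10 closest were LPCAT2 (r = 0.86), ACLY (0.82), CYP51A1 (0.82), GCM1 (0.80), KHSRP (0.80), ACSS2 (0.79), FDPS (0.77), COL8A2 (0.77), DGAT2 (0.77) and CPEB4 (0.75). ACLY, ATP citrate lyase, and ACSS2, acetyl-CoA synthetase, both make cytosolic acetyl-CoA, while COL8A2 is a collagen. Without the 2 farthest pigs these 10 values were 0.70 to 0.85. LPCAT2, first in this order, had a low mean signal of 4.41 and differed between the diets by at most 0.02. The mean signal of COL8A2 was also low, at 4.96 beside a median of 5.08 over all probe set means.

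The other genes of the lists fell at various places in that order. NPC1 (0.74), NSDHL (0.72), HSD17B7 (0.72) and STARD4 (0.71) were among the 23. Lower values were found for LPIN1 (0.43), NPC1L1 (0.36), TM7SF2 (0.31), SCAP (0.18), RNF139 (0.14), PMVK (0.12), ACACA (0.08), ME1 (0.00) and FAF2 (−0.27), and the lowest of the lists was ABCA1 (−0.54). All pigs of a diet shared one feed, and every value of a pig came from 1 array, so an array-wide shift would enter these correlations. The array medians had r of 0.27 with the mean of the 7 genes.

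Several markers of other cell types had different means in the diet groups, but none passed adjustment over all probe sets in limma's tests of the pairs. All 7 measured smooth muscle markers had higher means in IM10 than in CON, against 50.8% of all probe sets. The criteria were met by 4 of the 7, against a share of 2.07% over the array. Their mean was 5.41 to 6.33 in IM10 and 5.19 to 5.77 in CON. In IM5 it was 5.30 to 7.22, with 6 of 7 markers higher and 2 meeting the criteria, where the array-wide shares were 51.3% and 1.92%. The pigs of IM5 and IM10 whose smooth muscle mean lay above the range of CON are named below, and the others lay within it. For T and NK cells, 7 of 8 markers had lower means in IM10, 1 of them meeting the criteria, and 8 of 8 did in IM5, with 0 meeting them by limma and 1 at an unadjusted p under 0.05. Their mean was 4.90 to 5.29 in IM10, 4.72 to 5.26 in IM5 and 5.05 to 5.46 in CON. Of 8 Kupffer cell and macrophage markers, 8 were lower in IM10 than in IM5 (0 meeting the criteria by limma, 2 at an unadjusted p under 0.05), with means of 7.98 to 8.38 and 8.17 to 8.42. Against CON (8.03 to 8.29), 6 of these 8 were higher in IM5, 1 meeting the criteria and 2 at an unadjusted p under 0.05, and 2 of 8 were higher in IM10, 0 meeting them and 1 at an unadjusted p under 0.05. Array-wide, an unadjusted limma p under 0.05 was reached by 6.07% (IM10 versus CON), 5.72% (IM5 versus CON) and 5.4% (IM10 versus IM5). For IM10 versus IM5, the array-wide shares were 1.59% called and 49.3% higher in IM10. Whether markers of one list moved together was not tested, so counts within a list are not taken as separate results. The deviations of the smooth muscle mean had r of −0.20 with the mean of the 7 genes. For the T and NK cell mean r was 0.38, and for the Kupffer cell mean 0.33.

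The pigs whose smooth muscle mean lay above every control were replicates 5 and 6 of IM5 (5.81 and 7.22) and replicates 1, 2 and 5 of IM10 (6.16, 6.23 and 6.33). They include the lowest 2 and the highest 2 pigs for HMGCS1. With all 5 left out, an alternative chosen after seeing the data, INSIG1 was 0.41 higher in IM10 than in CON (limma p of 0.0408) and still met the criteria. In that comparison SQLE was then at 0.20 (limma p of 0.0989) and SC5D at 0.16 (limma p of 0.065), so neither kept its p under 0.05. Between IM10 and IM5 the count of called genes was then 0 in place of 3, with differences of 0.12 for HMGCS1, 0.13 for SQLE and 0.11 for ACAT2. The 6 correlations within the block were 0.53 to 0.89 over the remaining 13 pigs, and 2 of the 21 pairs kept an adjusted p under 0.05.

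Of the remaining markers, endothelium had 1 of 6 meeting the criteria in each comparison with CON, with means over the list of 6.86 to 7.19 in all pigs. For cholangiocytes this was 1 of 5, in IM5 against CON (5.65 to 6.24 in all pigs). The criteria were met by 2.07% of all probe sets between IM10 and CON and by 1.92% between IM5 and CON. Stellate cell (6.96 to 7.82), erythroid (4.10 to 4.51) and adipocyte (4.37 to 4.59) markers had 0 that met the criteria in any pair by limma, and 1 adipocyte marker had an unadjusted p under 0.05, in IM5 against CON. The part of these cell types in the results was not tested.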

How the data were processed

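Liver RNA of 18 pigs was hybridised to Porcine Gene 1.0 ST arrays. The authors made the deposited log2 values from the scans by RMA (background correction, quantile normalization and probe set summary) in Affymetrix Expression Console. RMA pulls low values together and can understate their differences, and 1 array per pig limits the precision to the number of pigs. Gene names came from the platform annotation, which listed 13257 probe sets with 1 gene symbol, 427 with several and 11704 not at all. Where a gene had several probe sets, the one with the highest mean over the 18 arrays was used.

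Pairs of groups were compared with limma 3.58.1 (R 4.3.3) on their 12 arrays, with a fold change over 1.2 and an unadjusted p under 0.05 as criteria and Benjamini-Hochberg adjustment over 25388 probe sets. The dose trend was a limma slope over 18 arrays. Single genes were also compared with two-sided exact permutation tests, whose smallest p is 0.00216. Adjusted p under 0.05 was reached by 0 probe sets in each pair by limma (1541, 1452 and 1372 at an unadjusted p under 0.05 for IM10 versus CON, IM5 versus CON and IM10 versus IM5) and 0 by the methods' t-test, an equal-variance test without moderation. For co-variation, deviations from the diet means were permuted within diets with 100000 draws and adjusted over 21 pairs. P-values treat pigs as independent.

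The named genes were all 7 members, the other genes of the cholesterol synthesis and SREBP2 regulator lists, genes of the further lists that met the criteria, and the 10 genes whose deviations correlated most with those of the members. NPC1, STARD4, NPC1L1 and the other genes named without meeting the criteria were added after their values were seen. The members and lists were chosen with earlier results of these data known. Alternatives were other normalization, tests, filters, blocks and sets of pigs. The limma script was tested on simulated data.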

Additional observations from a re-analysis of the deposited data

Results flagged for a closer look

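Replicate 2 of group IM10 had the highest SC5D value of its group, 10.68, apart from the other 5 pigs, which lay between 10.41 and 10.51. Its gap to the next pig was 0.63 of the whole range of the group, which passed Dixon's 95% limit. Over the 21 combinations of gene and group examined, chance alone would mark about 1 in 20. The same pig was also the highest of all 18 for INSIG1 (9.66), SQLE (9.57) and MSMO1 (11.19), where its distance from the group did not pass that limit.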

How the results depend on the processing

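The deposited values hold 6 pigs per group, so a difference of 0.20 between means lay within the spread for the more variable genes. Without probe sets below the median mean signal (fewer tested), the counts over all probe sets were 218 in place of 526 (IM10 versus CON), 209 in place of 488 (IM5 versus CON), 175 in place of 404 (IM10 versus IM5) and 731 in place of 1351 (dose trend). The methods' t-test gave 320 for IM5 versus CON and 368 and 276 for the other pairs, and 1 member in place of 3 for IM10 versus IM5. Without the 5 pigs high in smooth muscle markers, chosen after seeing the data, IM5 versus CON gave 757 probe sets, IM10 versus IM5 921 with 0 members, and co-variation 2 pairs in place of 6. Signs then turned for MVK in IM10 versus CON (−0.19), IM10 versus IM5 (−0.06) and the dose trend (−0.0198 per percent, limma p of 0.0407), and for SQLE (0.0742) and HMGCS1 (0.0383) in IM5 versus CON, where ACAT2 came to 0.00. SC5D then had a dose trend p of 0.0599. The cause was not tested. With each pig left out in turn, the members called ranged from 1 to 4 (IM10 versus CON), 0 to 0 (IM5 versus CON), 0 to 4 (IM10 versus IM5) and 2 to 3 (dose trend), and the pairs with an adjusted p under 0.05 from 6 to 7. INSIG1 kept its call without any of 12 pigs (0.35 to 0.54), whereas between IM10 and IM5 SQLE lost it for 1 of 12, HMGCS1 for 4 and ACAT2 for 9. Exact permutation p values under 0.05 ranged from 3 to 11 of 21 (main 8), with 3 without IM10 replicate 1 or 2, 4 without IM10 replicate 3, and 5 without CON replicate 2 or 5 or IM10 replicate 6. SQLE in IM5 versus CON ranged from −0.14 to 0.0107, the latter without IM5 replicate 5, and the MVK dose trend from −0.0009 to 0.0125, below 0 without IM10 replicate 1. Quantile normalization left 2 members called between IM10 and IM5 (ACAT2 limma p of 0.0512), and a trend in the prior variance added SQLE to the dose trend (limma p of 0.0465). A replicate block on the number of the pig left the members called at 1, 0, 3 and 2, and the counts over all probe sets were 609, 559, 450 and 1370 (IM10 versus CON, IM5 versus CON, IM10 versus IM5, dose trend). With that block, limma p between IM10 and IM5 was 0.000704 for HMGCS1 and 0.00164 for ACAT2, lower than without it. Between IM10 and CON it was 0.0289 for INSIG1, higher than without it. Deviations of same-numbered pigs had correlations of −0.144 to 0.201. Differently numbered pigs were not set beside them, so whether the numbers pair the pigs was not settled. The fit on all 18 arrays and the mean of probe sets per gene kept each count of members, and Spearman's rho, values as deposited and removal of the first component gave 6, 7 and 6 pairs.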
